A study of Mus musculus with 16 samples.

Results

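Matricellular proteins and the provisional matrix of a healing wound were followed through 10 genes in mouse flexor tendon: Fn1, Tnc, Tnn, Postn, Sparc, Spp1, Thbs1, Thbs2, Thbs3 and Cthrc1. They were chosen by gene symbol, and each symbol matched 1 row of a count table of 49568 genes. RNA-seq was performed on single deep digital flexor tendons of the third digit of the hind paw of male mice aged 9 to 11 weeks. There were 4 libraries in each of 4 groups: uninjured C57BL/6J (C57), injured C57, uninjured MRL/MpJ (MRL) and injured MRL. C57 is the common laboratory strain and MRL is a strain known for unusually complete tissue repair. Injured tendons had received a partial laceration and were collected 7 days post injury (7 dpi), and uninjured tendons were intact. Both strains are inbred and were bred in-house, so a strain difference is one between these colonies, and peritendinous and sheath tissue stayed on every tendon. The tendon genes Scx, Tnmd, Mkx and Fmod were counted in all 16 libraries, Scx at 43.1 CPM or more and Fmod at 4266 CPM or more.

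Matricellular proteins are secreted into the extracellular matrix, where they bind cells, collagens and growth factors more than they carry load. Most are scarce in resting adult tissue and are made again in wounds, where fibronectin and fibrin form the provisional matrix on which fibroblasts settle before collagen is laid down. In tendon, tenascin-C and periostin are known from sites of high load, growth and scar, and SPARC and the thrombospondins take part in collagen fibril assembly.

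Total counts ranged from 12552424 to 23741648 per library with a median of 15520024.5, and the injured MRL libraries were deeper (median 23460742.5) than the injured C57 libraries (median 14560249.5). Levels are given as CPM, counts scaled to a common library size after TMM normalisation, on which 3 counts correspond to between 0.128 and 0.237 CPM. Both uninjured libraries numbered 4 went against their strain labels. Of 33 genes counted at 2 CPM or more in every injured MRL library and below 0.2 CPM in every injured C57 library, the library labelled uninjured C57 replicate 4 had 32 at 0.5 CPM or more and the library labelled uninjured MRL replicate 4 had 0. The other uninjured libraries had 0 of 33 in C57 and 32 or 33 of 33 in MRL. Of 13 genes with the reverse pattern, the library labelled uninjured C57 replicate 4 had 1, while the library labelled uninjured MRL replicate 4 had 13. The library labelled uninjured C57 replicate 4 also held 86379 CPM over 12 epidermal markers against at most 771 CPM in any other library, and injured C57 replicate 1 held 75138 CPM over 12 skeletal muscle markers against at most 2201 CPM elsewhere. Groups are named by their labels throughout. Group means include all 4 libraries, and tests against an uninjured group are also given without its replicate 4.

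The proximal promoters of 7 of the 10 genes were found in a RefSeq table for GRCm38.p6, and Fn1, Thbs1 and Cthrc1 were not. Those of Postn and Tnc are printed because these genes were low before injury and passed the test after it in C57 and MRL tendon, respectively. That of Spp1 is printed because its level set the strains apart in uninjured tendon once the doubtful libraries were left out. Each shows the 200 bases before the annotated start of transcription, read 5′ to 3′ on the strand of the gene. Capitals mark TATAAA in the first pair and GTCTG, the complement of the SMAD-type motif CAGAC, in Spp1.
Postn, chr3:54360907-54361106, plus strand: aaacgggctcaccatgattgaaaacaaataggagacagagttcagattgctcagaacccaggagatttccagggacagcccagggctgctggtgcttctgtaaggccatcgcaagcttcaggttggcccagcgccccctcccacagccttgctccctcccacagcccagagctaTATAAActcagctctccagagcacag
Tnc, chr4:64047016-64047215, minus strand: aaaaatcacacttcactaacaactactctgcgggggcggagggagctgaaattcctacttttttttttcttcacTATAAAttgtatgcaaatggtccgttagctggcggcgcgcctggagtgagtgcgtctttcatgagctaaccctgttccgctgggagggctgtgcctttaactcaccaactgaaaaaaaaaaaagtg
Spp1, chr5:104434911-104435110, plus strand: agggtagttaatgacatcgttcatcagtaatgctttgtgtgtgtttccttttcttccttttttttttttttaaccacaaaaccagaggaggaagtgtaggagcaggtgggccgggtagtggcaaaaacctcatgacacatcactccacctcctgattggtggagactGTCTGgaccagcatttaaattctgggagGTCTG
The TATAAA of Postn began 26 bases before the start and that of Tnc 126 bases before it, and 12.4% of 32841 mouse promoters held these letters on either strand within 250 bases before the start. Of the 7 promoters 4 held them, the others being those of Spp1, 211 bases before the start and outside the stretch shown, and Thbs2, 126 bases before it. Matches to CAGAC in the Spp1 promoter began 33 and 5 bases before the start, and this short motif was in 42.2% of promoters and in 3 of the 7, those of Spp1, Sparc and Thbs2. Neither TGANTCA, an AP-1 type motif found in 6.75% of promoters, nor a CArG box, found in 1.47%, was in any of the 7 promoters. CATTCC, a TEAD-type motif held by 12.6% of promoters, was in that of Tnn alone, 160 bases before the start. A match is a run of letters and not a measured binding site.

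The 10 genes divided by level. Between genes, levels were compared as mean CPM per kilobase of exon. Sparc (osteonectin, a collagen-binding glycoprotein) and Spp1 (osteopontin, a phosphoprotein ligand of integrins and CD44) were the highest in every group. In uninjured C57 tendon Sparc was at 2891 ± 1187 and Spp1 at 2525 ± 1529 CPM per kb (SD, n = 4), and the ranges of these neighbours overlapped. Fn1, which encodes fibronectin, came next in every group without overlapping them, at 124 ± 56.9 CPM per kb in uninjured C57 and 134 ± 58.8 in uninjured MRL tendon. The thrombospondins followed in uninjured tendon in the order Thbs2, Thbs3 and Thbs1, at 65.3, 39.6 and 26.0 CPM per kb in C57 and at 101, 40.6 and 18.8 in MRL. Cthrc1, Postn, Tnc and Tnn were at most 1.92 CPM per kb on average in either uninjured group. After injury Cthrc1 and Postn reached 88.2 ± 109 and 87.7 ± 96.5 CPM per kb in C57, next below Fn1 and above Thbs2. Both ranges overlapped with that of Thbs2, and that of Cthrc1 but not that of Postn with that of Fn1. Sparc, Spp1 and Fn1 together made up 88.9% to 97.9% of the counts of the 10 genes. The 10 genes took 0.514% of all counts in the library labelled uninjured C57 replicate 4, 1.25% in injured C57 replicate 1, and up to 6.27% in injured MRL replicate 2.

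**Figure D1:**
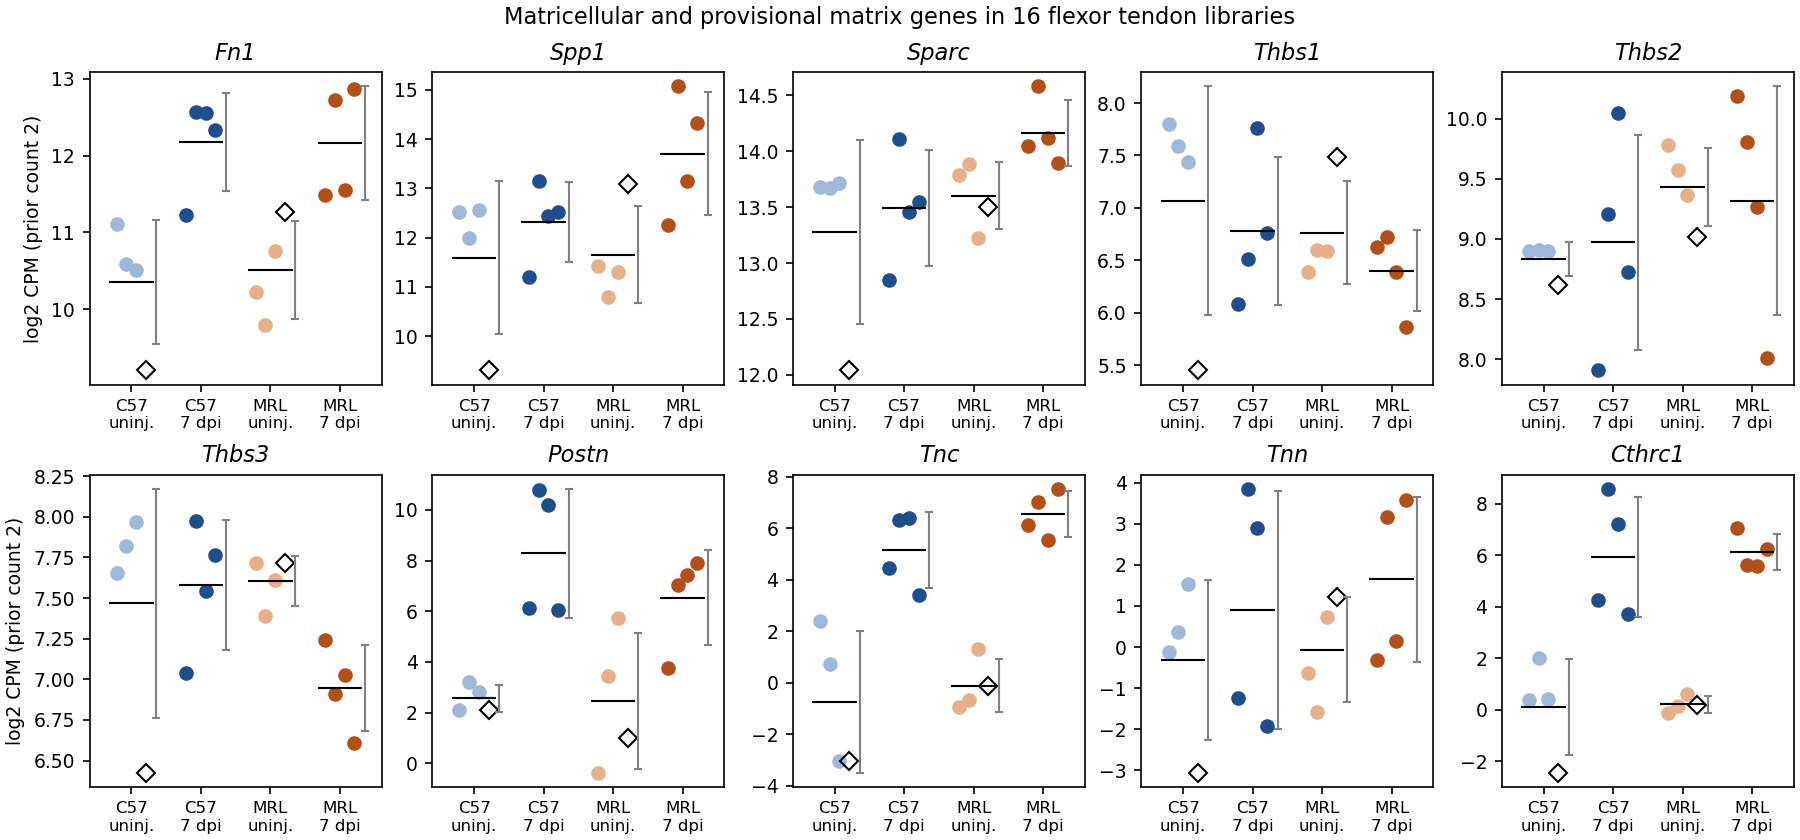
Level of each gene in each of the 16 libraries, as log2 CPM with a prior count of 2 on the vertical axis (scaled per gene), by group on the horizontal axis. Points are libraries in replicate order, horizontal lines are group means and grey bars are ± 1 SD (n = 4); open diamonds are the uninjured libraries numbered 4. Postn, Tnc and Cthrc1 were higher in all 4 injured C57 libraries than in any uninjured C57 library, and Thbs3 was lower in all 4 injured MRL libraries than in any uninjured MRL library.

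To determine how the injury changed these genes, injured tendon was compared with uninjured tendon within each strain (edgeR quasi-likelihood test, Benjamini-Hochberg adjusted over all genes tested). A gene was called when its adjusted p was under 0.05 and its absolute log2 fold change was over 1. In C57 tendon 1 of the 10 genes was called, Postn, where 1.07% of 14424 genes were called in either direction and 0.908% as higher. In MRL tendon 3 of the 10 were called, Tnc, Cthrc1 and Fn1, all higher, where 7.41% of 14274 genes were called and 5.25% as higher. The median log2 fold change of the 10 genes was 1.05 in C57 and 1.90 in MRL, against -0.05 and -0.03 over all genes tested. In each strain 8 of the 10 log2 fold changes were above 0. In each strain 4 genes were higher in every injured library than in any uninjured library, Fn1, Tnc, Postn and Cthrc1 in C57 and Fn1, Tnc, Sparc and Cthrc1 in MRL. Over all genes tested this held for 7.58% in C57 and 14.2% in MRL. Without the libraries labelled uninjured replicate 4 it held for the same 4 genes in C57, against 12.03% of all genes, and for 5 in MRL, where Spp1 joined them, against 16.7%.

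Without the library labelled uninjured C57 replicate 4, the count in C57 was again 1 of 10, but the gene was Fn1, against 5.01% of all genes tested. Without the library labelled uninjured MRL replicate 4, 4 genes were called in MRL, Tnc, Cthrc1, Fn1 and Spp1, against 6.11% of all genes. The median log2 fold change of the 10 genes was 0.83 in C57 and 2.35 in MRL without these libraries. DESeq2 on the same libraries called 3 genes in C57, Postn, Cthrc1 and Fn1, against 5.46% of all genes. It called Tnc, Cthrc1, Fn1 and Spp1 in MRL, against 11% of all genes.

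**Figure D2:**
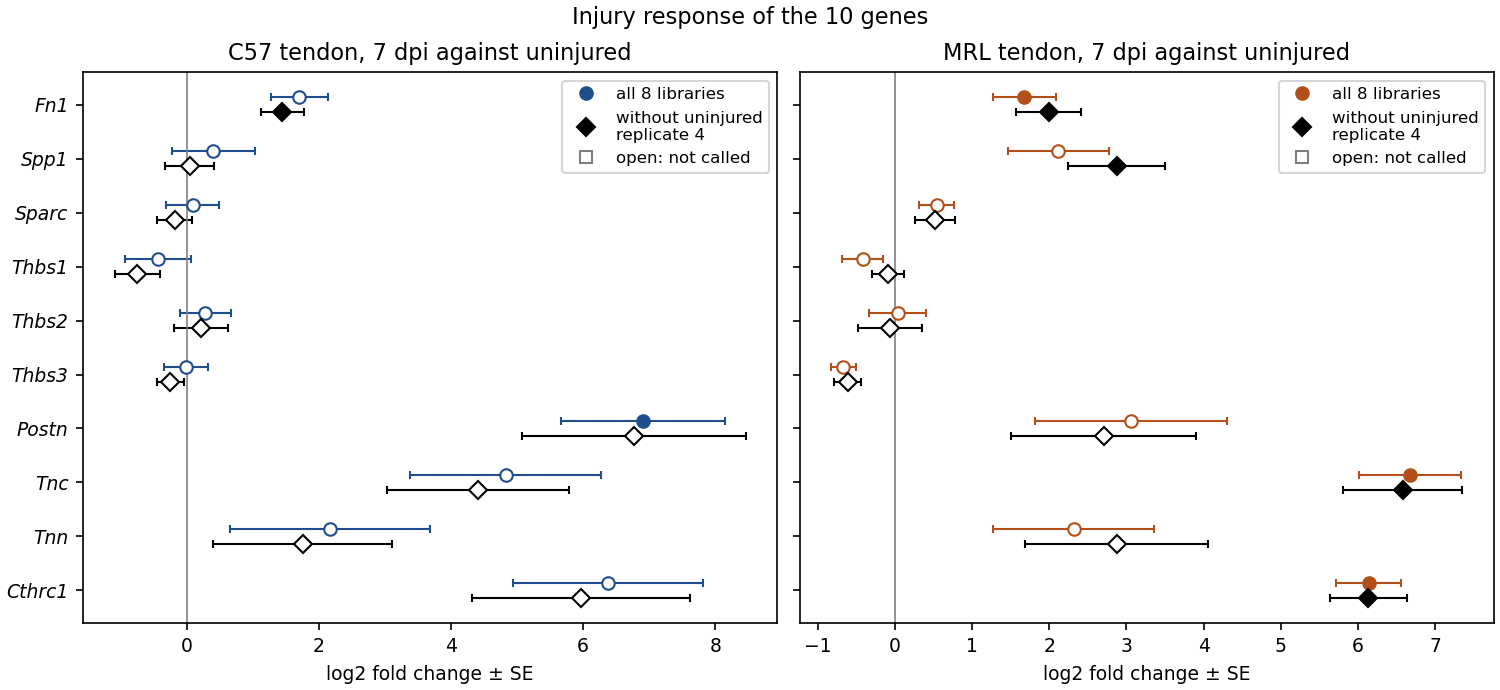
Log2 fold change of injured over uninjured tendon on the horizontal axis, with its SE, for the 10 genes in C57 (left) and MRL (right). Circles are the fit on 8 libraries, diamonds the fit without the uninjured library numbered 4, and filled symbols passed the test. Postn, Tnc and Cthrc1 lay between 3.06 and 6.91 in both strains, while Sparc and the thrombospondins lay between -0.66 and 0.54 (fits on 8 libraries).

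Fibronectin is the core of the provisional matrix and an early product of wound fibroblasts and macrophages. Fn1 (minus strand, 45 exon blocks at chr1:71585520-71653200 in GRCm38) was at 2210, 1546, 1466 and 591 CPM in uninjured C57 libraries 1 to 4 and at 2405, 6076, 6034 and 5174 CPM in the injured ones. The groups did not overlap, but injured library 1 lay close to the highest uninjured value. The log2 fold change was 1.70 with an SE of 0.43 and an adjusted p of 0.109 (edgeR). Without the library labelled uninjured replicate 4 it was 1.44 with an SE of 0.32 and an adjusted p of 0.0340. In MRL tendon Fn1 was at 1194, 893, 1731 and 2460 CPM in the uninjured and at 2873, 6782, 3015 and 7481 CPM in the injured libraries. Again the groups did not overlap, and the injured libraries fell into a lower pair (1 and 3) and a higher pair (2 and 4). Fn1 rose in MRL tendon by a log2 fold change of 1.68 with an SE of 0.41 and an adjusted p of 0.0277 (edgeR), and by 2.00 without the library labelled uninjured replicate 4. This call was made in 3 of 8 fits that each left out 1 library, those without injured replicate 1, injured replicate 3 or uninjured replicate 4. The adjusted p over the 8 fits was 0.0207 to 0.0856.

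Tenascin-C, the product of Tnc, is a hexameric glycoprotein that loosens the grip of cells on fibronectin. Tnc (minus strand, 27 exon blocks at chr4:63959785-64047015) was at 5.07, 1.55, 0 and 0 CPM in the uninjured C57 libraries and at 21.7, 80.0, 84.4 and 10.4 CPM in the injured ones. All injured libraries were higher, by a log2 fold change of 4.83 with an SE of 1.44, but the spread left the adjusted p at 0.175 (edgeR), and without the library labelled uninjured replicate 4 it was 4.41 with an adjusted p of 0.133. In MRL tendon Tnc was at 0.394, 0.502, 2.38 and 0.790 CPM before injury and at 69.8, 128, 45.7 and 185 CPM after it. Tnc rose 102-fold in MRL tendon, a log2 fold change of 6.67 with an SE of 0.66 and an adjusted p of 0.000876 (edgeR). The call was made in all 8 fits that left out 1 library, with log2 fold changes from 6.26 to 7.55, and it was 6.58 without the library labelled uninjured replicate 4. A processed transcript on the opposite strand of Tnc, 8030451A03Rik, was at 1.11 CPM or less in every library.

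Tenascin-N, encoded by Tnn, is the related tenascin-W of bone and of stroma in repair, and it was the lowest of the 10 genes per kilobase in injured tendon of both strains. Tnn was at 0.306, 14.3, 7.35 and 0.142 CPM in injured C57 and at 0.680, 8.92, 0.991 and 11.8 CPM in injured MRL tendon. Only the higher pair of each group lay above the uninjured libraries, which reached 2.75 CPM in C57 and 2.21 CPM in MRL. The log2 fold changes of 2.16 in C57 and 2.32 in MRL did not pass the test (adjusted p of 0.539 and 0.174, edgeR), nor did those of 1.75 and 2.88 without the libraries labelled uninjured replicate 4 (adjusted p of 0.508 and 0.170).

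Periostin, the product of Postn, binds collagen and tenascin-C, aids collagen cross-linking and marks activated fibroblasts. Postn (plus strand, 22 exon blocks at chr3:54361109-54391037) was at 4.20, 9.03, 6.89 and 4.23 CPM in uninjured C57 tendon and at 70.6, 1758, 1161 and 65.2 CPM in injured C57 tendon. Every injured library was at 65.2 CPM or more, and the lower of replicates 2 and 3 was 16.4 times the higher of replicates 1 and 4. Postn rose 120-fold in C57 tendon, a log2 fold change of 6.91 with an SE of 1.25 and an adjusted p of 0.0466 (edgeR). The adjusted p was 0.0848 without the library labelled uninjured replicate 4, and the call was made in 1 of 8 fits that left out 1 library, that without injured C57 replicate 1 (7.32, adjusted p of 0.0318). Leaving out any other library gave adjusted p of 0.0547 to 0.146. In MRL tendon Postn was at 0.656, 10.9, 53.2 and 1.90 CPM in the uninjured and at 13.6, 131, 173 and 241 CPM in the injured libraries. Uninjured MRL replicate 3 lay above injured MRL replicate 1, so the groups overlapped. The log2 fold change was 3.06 with an SE of 1.25 and an adjusted p of 0.148 (edgeR). It was 2.71 with an adjusted p of 0.197 without the library labelled uninjured replicate 4, and 4.93 with an adjusted p of 0.0461 when uninjured MRL replicate 3 was left out.

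Cthrc1 (collagen triple helix repeat containing 1) is a secreted glycoprotein of wound fibroblasts that limits collagen deposition, and its gene has 5 exon blocks on the plus strand at chr15:39076932-39087121. It was at 1.20, 3.94, 1.22 and 0.0651 CPM in uninjured C57 and at 19.1, 383, 147 and 13.2 CPM in injured C57 tendon. The injured values spanned 29.1-fold, with replicates 2 and 3 again the highest, and the log2 fold change of 6.38 with an SE of 1.44 had an adjusted p of 0.0840 (edgeR), or 5.97 with an adjusted p of 0.107 without the library labelled uninjured replicate 4. In MRL tendon Cthrc1 was at 0.788, 1.00, 1.43 and 1.03 CPM before injury and at 133, 48.7, 47.9 and 75.4 CPM after it. These groups were far apart, and the highest library was 1.81 times the lowest before injury and 2.77 times after it. Cthrc1 rose 70.6-fold in MRL tendon, a log2 fold change of 6.14 with an SE of 0.42 and an adjusted p of 0.000273 (edgeR), and this call too was made in all 8 fits that left out 1 library, also at 6.14 without the library labelled uninjured replicate 4.

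Osteopontin, the product of Spp1, is made by macrophages, bone cells and stressed fibroblasts. In injured C57 tendon Spp1 was at 2358, 9047, 5546 and 5900 CPM, within and above the uninjured values of 5859, 4066, 6089 and 633 CPM. The log2 fold change of 0.40 with an SE of 0.63 did not pass the test (adjusted p of 0.818, edgeR), and was 0.04 without the library labelled uninjured replicate 4. In MRL tendon Spp1 was at 2763, 1789, 2534 and 8680 CPM in the uninjured and at 4885, 34434, 9040 and 20662 CPM in the injured libraries. The library labelled uninjured MRL replicate 4 was the only uninjured MRL library above injured replicate 1. The log2 fold change was 2.12 with an SE of 0.65 and an adjusted p of 0.0633 (edgeR). Without that library it was 2.88 with an SE of 0.63 and an adjusted p of 0.0283, and without injured replicate 1 it was 2.41 with an adjusted p of 0.0433. In the other 6 fits that left out 1 library Spp1 was not called.

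Sparc lay between 7385 and 17736 CPM in injured C57 tendon and between 13012 and 13438 CPM in uninjured C57 libraries 1 to 3. Its log2 fold change in C57 was 0.09 with an SE of 0.40, and it was -0.18 without the library labelled uninjured replicate 4, in which Sparc was at 4213 CPM. In MRL tendon Sparc was at 14153, 15179, 9578 and 11624 CPM in the uninjured and at 16952, 24501, 17768 and 15216 CPM in the injured libraries. All injured MRL libraries were higher, by a log2 fold change of 0.54 with an SE of 0.23, and the test was not passed (adjusted p of 0.151, edgeR, or 0.242 without the library labelled uninjured replicate 4).

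The thrombospondins are calcium-binding glycoproteins of the matrix. Thrombospondin-1 and thrombospondin-2 act on cells through CD36, and thrombospondin-1 also binds CD47 and releases active TGF-beta from its latent complex. None of the 3 was called after injury in either strain, with or without the libraries labelled uninjured replicate 4. Thbs1 was at 67.9, 91.0, 216 and 108 CPM in injured C57 tendon against 223, 192, 173 and 43.6 CPM in the uninjured libraries. These values overlapped, with a log2 fold change of -0.44 with an SE of 0.50 (adjusted p of 0.732, edgeR), or -0.75 with an SE of 0.34 and an adjusted p of 0.253 without the library labelled uninjured replicate 4. In MRL tendon Thbs1 lay between 58.2 and 106 CPM after injury, a log2 fold change of -0.41 that was -0.09 without the library labelled uninjured replicate 4. Thbs2, which serves fibril assembly, spread 4.40-fold among the injured C57 and 4.53-fold among the injured MRL libraries, and its log2 fold changes were 0.28 in C57 and 0.04 in MRL, or 0.22 and -0.06 without those libraries.

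Thbs3 encodes a pentameric member of the family. It was at 210, 167, 195 and 210 CPM in uninjured MRL and at 151, 120, 130 and 97.4 CPM in injured MRL tendon. Every injured library was below every uninjured one, the only such case among the 10 genes, where 8.71% of all genes tested in MRL were placed so. The log2 fold change was -0.66 with an SE of 0.16 and an adjusted p of 0.0260 (edgeR), which is under the required size, and the adjusted p was 0.0653 without the library labelled uninjured replicate 4. In C57 tendon the log2 fold change was -0.01 with an SE of 0.33, at 131 to 251 CPM after injury, and scaling by total counts turned it to 0.12. Without the library labelled uninjured replicate 4 it was -0.25 with an adjusted p of 0.536 (edgeR). Mtx1 overlaps Thbs3 on the opposite strand and was at 25.1 to 50.0 CPM, and the strand setting of the counting is not given in the sources used here.

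The tendons are bulk tissue, so more cells of a kind and more RNA per cell cannot be told apart. The summed level of 12 macrophage markers moved with the injury, from 795 to 1759 CPM in uninjured C57 to 4818 to 8493 CPM in injured C57 tendon, and from 988 to 1617 CPM to 3642 to 6623 CPM in MRL. Of these markers 5 were called in each strain, among them Lyz2 and Cd68, and at least 11 of the 12 had more than 3 counts in every library. The summed level of 8 proliferation markers was 3.71 to 12.99 CPM in uninjured MRL and 207 to 737 CPM in injured MRL tendon, and all 8 were called there. In C57 it was 7.42 to 11.7 CPM in uninjured replicates 1 to 3, 232 CPM in the library labelled uninjured replicate 4 and 57.9 to 342 CPM after injury. None of the 8 was called in C57 with that library and 7 were called without it, when 10 of the 12 macrophage markers were called as well. In MRL 4 of the 12 macrophage markers were called without the library labelled uninjured replicate 4. Endothelial markers summed to 34.3 to 141 CPM in uninjured and 171 to 295 CPM in injured C57 tendon, without overlap, and to 29.5 to 139 and 30.5 to 67.9 CPM in MRL. Of the 10 endothelial markers Eng was called in C57, and Emcn, Tie1 and Eng without the library labelled uninjured replicate 4, while none was called in MRL. Rgs5, a pericyte marker, was called in C57 in both fits. Platelet markers summed to 68.2 to 140 CPM in uninjured and 313 to 407 CPM in injured C57 tendon, and to 41.8 to 95.2 and 114 to 271 CPM in MRL. Tenocyte markers summed to 33129 to 38691 CPM in uninjured C57 replicates 1 to 3, 13377 CPM in the library labelled uninjured replicate 4 and 14737 to 28145 CPM in injured C57 tendon, and overlapped in MRL. Fibroblast markers summed to 34183 to 39265, 23085 and 17574 to 33495 CPM in the same order, and overlapped in MRL too. The highest genes of these lists in uninjured C57 tendon were Chad and Dcn. In C57 Chad went from 16507 ± 7789 to 5956 ± 2612 CPM and Dcn from 32283 ± 7098 to 24035 ± 6255 CPM (SD, n = 4). There 4 of 8 tenocyte and 4 of 6 fibroblast markers had log2 fold changes above 0, with medians of -0.11 and 0.73. Without the library labelled uninjured replicate 4 these were 3 and 4, with medians of -0.29 and 0.59. Within these lists Pi16 was called as higher in C57, from 6.65 ± 3.51 to 265 ± 129 CPM (SD, n = 4). Of the tenocyte markers Chad was called as lower and Thbs4 as higher in MRL, where 5 of the 8 had log2 fold changes above 0 (median 0.36). In MRL Lum and the chondrocyte marker Acan were called as higher and Pdgfrb as lower. Without the libraries labelled uninjured replicate 4, Chad was called as lower in C57 too, and Lum and Acan were not called in MRL. The part of any of these cells in the levels of the 10 genes was not tested.

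To describe how far the injured tendons of a group differed, the levels were followed from library to library. In injured C57 tendon Postn, Cthrc1, Tnc and Tnn were all high in replicates 2 and 3 and low in replicates 1 and 4. The highest value was 27.0 times the lowest for Postn, 29.1 times for Cthrc1 and 8.12 times for Tnc. Tnn had 232 and 114 counts in the high pair against 5 and 2 in the low pair, too few for a ratio. The other 6 genes were lowest in replicate 1, and Fn1 in replicate 4 was within the range of the rest. Skeletal muscle markers summed to 75138 CPM in replicate 1 and to 10.4 CPM in replicate 4, and their part in these levels was not tested. The proliferation markers summed to 134, 319, 342 and 57.9 CPM in injured C57 replicates 1 to 4, the same division into a high and a low pair.

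In injured MRL tendon the order was another. Tnn, Tnc, Fn1 and Spp1 were highest in replicates 2 and 4. Spp1 spanned 7.05-fold and was at 34434 CPM in replicate 2, where it made up 3.22% of all counts. Cthrc1 was highest in replicate 1, at 133 CPM, the library in which Postn was lowest, at 13.6 CPM. Per kilobase, Cthrc1 was 53.5 times as high as Postn in injured MRL replicate 1, 1.51 to 2.02 times in the other injured MRL libraries and 0.691 to 1.48 times in injured C57 tendon. No injured MRL library had more than 13.5 CPM of skeletal muscle markers.

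**Figure D3:**
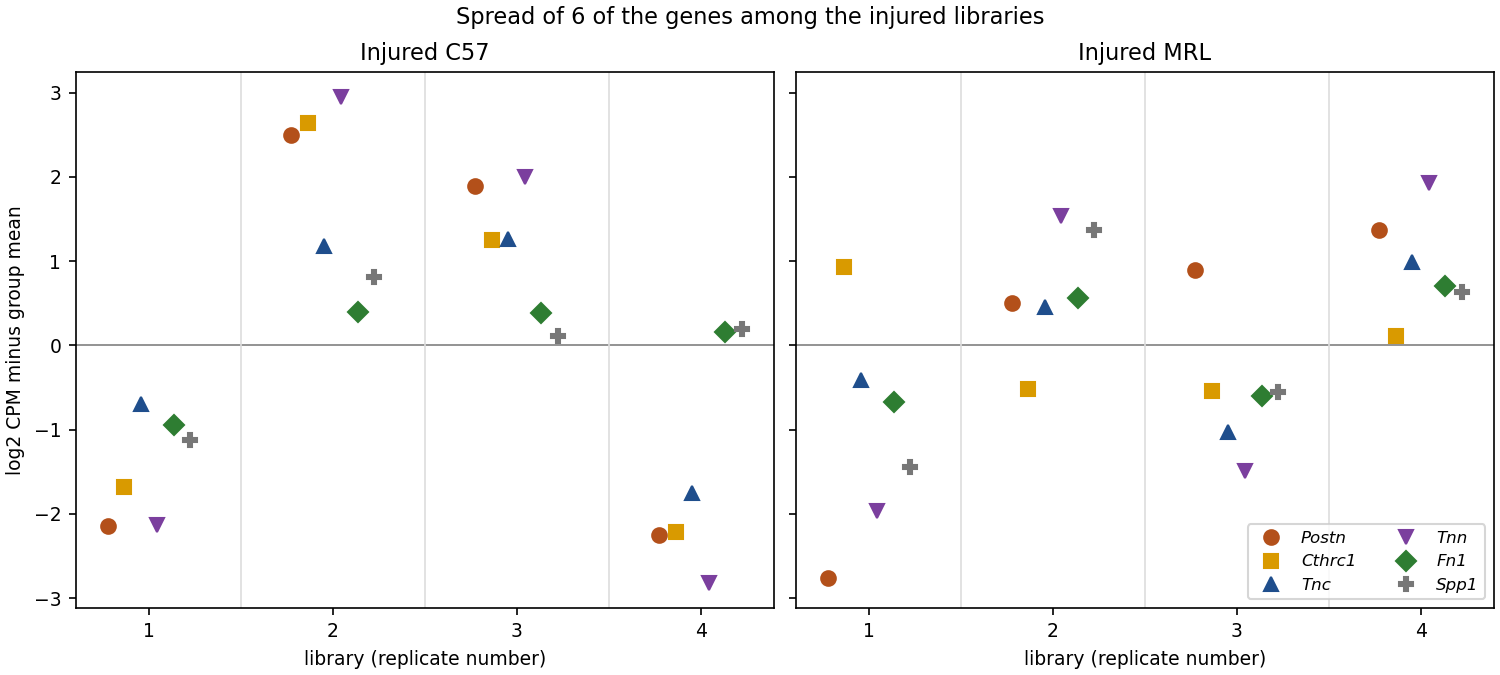
Log2 CPM of 6 of the genes minus the mean of their own group, on the vertical axis, in the 4 injured C57 libraries (left) and the 4 injured MRL libraries (right), by replicate number on the horizontal axis. Points at 0 lie at the group mean. In C57, Postn, Cthrc1, Tnc and Tnn lay above their mean in replicates 2 and 3 and below it in 1 and 4, and in MRL the order of Cthrc1 departed from that of Postn.

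Next, the 2 strains were compared in uninjured tendon. With all libraries none of the 10 genes was called, and 0% of 14055 genes were called by edgeR. At an unadjusted p under 0.05 edgeR listed 1 of the 10 genes, Thbs2, and 1106 of all genes, and DESeq2 called 101 of all genes and none of the 10. Thbs2 was at 479, 480, 477 and 393 CPM in C57 and at 881, 760, 659 and 517 CPM in MRL tendon, so every MRL library was higher, as for 2.97% of all genes tested, by a log2 difference of 0.61 with an SE of 0.19 and an adjusted p of 0.621 (edgeR).

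Leaving out both libraries numbered 4, a choice made after their values were seen, changed this comparison. Thbs1 and Spp1 were then called as lower in MRL, where 3.48% of all genes tested were called. Thbs1 was at 223, 192 and 173 CPM in C57 and at 83.4, 96.9 and 95.8 CPM in MRL libraries 1 to 3, a log2 difference of -1.10 with an SE of 0.13 and an adjusted p of 0.000814 (edgeR). Spp1 was at 5859, 4066 and 6089 CPM in C57 and at 2763, 1789 and 2534 CPM in MRL libraries 1 to 3, a log2 difference of -1.19 with an SE of 0.19 and an adjusted p of 0.00613 (edgeR). The library labelled uninjured C57 replicate 4 was below all the others for both genes, at 43.6 CPM of Thbs1 and 633 CPM of Spp1, and that labelled uninjured MRL replicate 4 was among or above the C57 libraries, at 180 and 8680 CPM. The log2 difference of Thbs2 was then 0.67 with an SE of 0.12 and an adjusted p of 0.00949 (edgeR), under the required size, and 13.03% of all genes tested were higher in all 3 MRL libraries. The sums of several marker lists also differed between these 3 C57 and 3 MRL libraries without overlap. Osteoblast and osteocyte markers summed to 23.5 to 46.6 CPM in C57 and 116 to 228 CPM in MRL. Nearly all of this was Ibsp, and of the 3 genes tested on that list 1 was higher in MRL (median log2 difference of -0.18). Chondrocyte markers summed to 144 to 244 and 343 to 448 CPM, and fibroblast markers to 34183 to 39265 and 50358 to 54859 CPM. Platelet markers summed to 95.9 to 140 CPM in C57 and 41.8 to 95.2 CPM in MRL. Most of this was Pf4, and of the 3 platelet markers tested 2 were higher in MRL (median log2 difference of 0.60). Ibsp, Col2a1, Acan and Lum were called as higher in MRL and the macrophage markers Cd14 and C1qb as lower. The part of these cells in the levels of Spp1, Thbs1 and Thbs2 was not tested. Postn was uneven in uninjured MRL tendon, from 0.656 CPM in replicate 1 to 53.2 CPM in replicate 3, and its log2 difference of 1.67 between the strains had an adjusted p of 0.558 (edgeR).

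**Figure D4:**
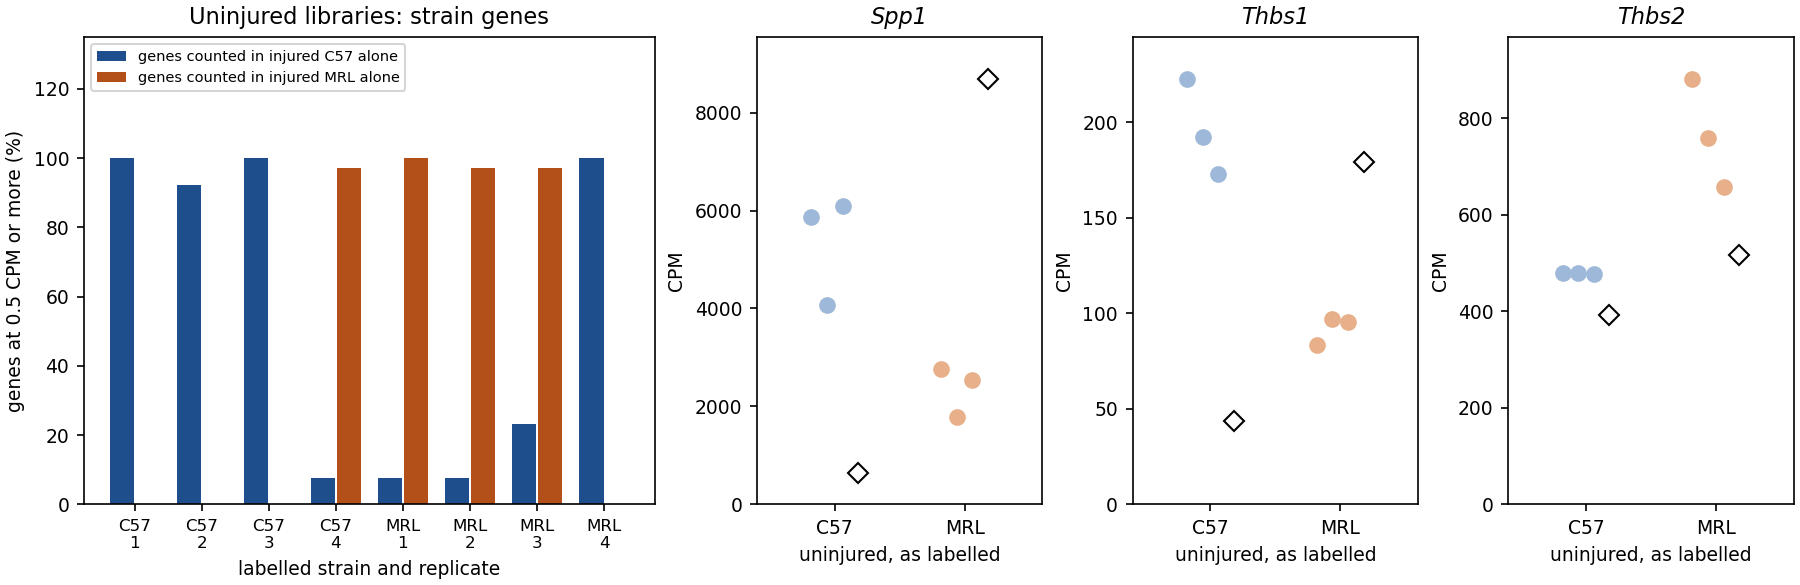
Left, percent of the genes counted in injured C57 but not injured MRL libraries (blue) and of those with the reverse pattern (orange) that reached 0.5 CPM in each uninjured library, by labelled strain and replicate. Right, CPM of Spp1, Thbs1 and Thbs2 in the uninjured libraries (linear axes from 0), with open diamonds for the libraries numbered 4. Without these, Spp1 and Thbs1 were higher in all 3 C57 libraries than in any MRL library, as were 11.7% of all genes tested.

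The injured tendons of the strains were then compared with each other. None of the 10 genes was called by edgeR, where 3.43% of 14626 genes were called, and Thbs3 and Spp1 had an unadjusted p under 0.05, as did 21.2% of all genes. Spp1 was higher in MRL by a log2 difference of 1.57 with an SE of 0.59 and an adjusted p of 0.166 (edgeR). DESeq2 called Spp1 alone, with a log2 difference of 1.58 and an adjusted p of 0.0431, where it called 8.48% of all genes. Postn averaged 764 ± 839 CPM in injured C57 and 140 ± 95.4 CPM in injured MRL tendon (SD, n = 4), a log2 difference of -2.47 with an SE of 1.23 that was within the spread of the libraries (adjusted p of 0.294, edgeR). Cthrc1 averaged 140 ± 173 CPM in C57 and 76.2 ± 39.9 CPM in MRL, also within the spread. Tnc averaged 49.1 ± 38.5 and 107 ± 62.1 CPM, a log2 difference of 1.10 with an SE of 0.66 and an adjusted p of 0.373 (edgeR). Fn1 was nearly level, at 4922 ± 1729 CPM in C57 and 5038 ± 2435 CPM in MRL, a log2 difference of 0.01 with an SE of 0.40, or -0.14 when scaled by total counts. Fibroblast markers summed to 17574 to 33495 CPM in injured C57 and 43774 to 57773 CPM in injured MRL tendon, without overlap. Most of that sum was Dcn, at 24035 ± 6255 CPM in C57 and 44912 ± 7302 CPM in MRL (SD, n = 4). Of the 6 fibroblast markers 2 were higher in MRL, with a median log2 difference of -0.33. Chondrocyte markers summed to 38.5 to 117 CPM in C57 and 126 to 908 CPM in MRL, also without overlap. Scx, Lum and Acan were called as higher in MRL. The part of these cells in the strain differences was not tested. The injured groups of the strains overlapped for all 10 genes, while 8.57% of all genes tested were higher and 7.49% lower in every injured MRL library.

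Whether the injury response itself differed between the strains was tested as an interaction over all 16 libraries. None of the 10 genes passed, and edgeR called 0% of 15947 genes at an adjusted p under 0.05, with 1939 genes and none of the 10 at an unadjusted p under 0.05. DESeq2 called 212 genes, none of the 10. The largest estimate was that of Postn, whose response was smaller in MRL by 3.91 on the log2 scale with an SE of 1.83 and an adjusted p of 0.418 (edgeR), or by 4.14 with an SE of 2.03 without both libraries numbered 4. For Spp1 the response was larger in MRL by 1.67 with an SE of 0.99, or by 2.77 with an SE of 0.78 and an adjusted p of 0.271 (edgeR) without both libraries numbered 4. For Tnc it was larger by 1.81 with an SE of 1.51, and for Cthrc1 and Fn1 the estimates of -0.30 and -0.08 were small beside their SE of 1.40 and 0.62. Without both libraries numbered 4 the estimates were 2.12 for Tnc, 0.09 for Cthrc1 and 0.49 for Fn1, and none of the 10 genes passed. Thus Tnc passed the test in MRL and not in C57, and Postn in C57 and not in MRL, without a difference between the strains having been shown for either.

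The other genes of the pathway were counted in the same fits, and their counts stand beside the 1.07% of genes called in C57 and 7.41% in MRL, or 5.01% and 6.11% without the libraries labelled uninjured replicate 4. Of 20 other matricellular genes 17 were tested. In C57 only Smoc2, a SPARC relative, was called, at 29.5 ± 8.92 CPM before and 162 ± 69.5 CPM after injury (SD, n = 4), a log2 fold change of 2.40. In MRL 3 rose, Wisp1 and Wisp2 of the CCN family and the tendon thrombospondin Thbs4, by 2.28, 1.34 and 1.31 on the log2 scale. Tenascin-X, encoded by Tnxb, and the CCN protein Nov fell in MRL, Tnxb from 479 ± 113 to 85.8 ± 42.7 CPM. Tnxb thus changed against Tnc in MRL tendon, with log2 fold changes of -2.51 and 6.67, and was also lower in injured MRL than in injured C57 tendon, by 1.78 on the log2 scale with an adjusted p of 0.0430 (edgeR). The median log2 fold change of the 17 genes was 0.88 in C57 and 0.00 in MRL. In C57 4 of the 17 were called when uninjured replicate 4 was left out, where Smoc2, Wisp2 and Spon1 rose and Tnxb fell (log2 fold change of -1.11, adjusted p of 0.0251, edgeR). In MRL 7 were called without its replicate 4, Smoc2, Wisp1, Thbs4, Wisp2 and Ctgf as higher and Tnxb and Sparcl1 as lower, and Nov was not.

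Of 17 receptors for these proteins 16 were tested in each strain, with a median log2 fold change of 0.40 in C57 and 0.28 in MRL. Cd36, a thrombospondin receptor that is also carried by macrophages and endothelium, rose in both, from 75.3 ± 24.4 to 261 ± 94.2 CPM in C57 and from 47.5 ± 21.0 to 160 ± 44.1 CPM in MRL. Cd44, a receptor for osteopontin and hyaluronan, rose in MRL by 1.14 on the log2 scale. Without the libraries labelled uninjured replicate 4, Cd36 and the SPARC-binding scavenger receptor Stab1 were called in C57, and Cd36, Cd44 and the fibronectin receptor subunit Itga5 in MRL, all higher. The integrin subunit Itgb3 was lower in injured MRL (3.70 ± 2.08 CPM) than in injured C57 tendon (21.3 ± 12.9 CPM), by 2.55 on the log2 scale with an adjusted p of 0.0321 (edgeR). Of the endothelial markers 3 of 10, of the smooth muscle and pericyte markers 3 of 7 and of the macrophage markers 4 of 12 were also called as lower in injured MRL, and all the macrophage markers had log2 differences below 0, with a median of -1.10. Endothelial markers summed to 171 to 295 CPM in injured C57 and 30.5 to 67.9 CPM in injured MRL tendon, and the smooth muscle markers to 252 to 1080 CPM in injured C57 replicates 2 to 4 and 44.8 to 114 CPM in MRL. Injured C57 replicate 1, which held the skeletal muscle markers, was at 4213 CPM, of which 2793 CPM were Des, a gene of both kinds of muscle. The summed platelet markers did not overlap between the injured groups either. Most of that sum was Pf4, at 357 ± 41.0 CPM in injured C57 and 175 ± 67.8 CPM in injured MRL tendon (SD, n = 4). Of the 4 platelet markers tested 2 were higher in MRL, with a median log2 difference of -0.14. The part of these cells in the level of Itgb3 was not tested.

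Among 8 collagens and collagen-processing enzymes that these proteins bind or guide, 3 rose in MRL, Col5a1, Lox and Col3a1, by 1.53, 1.37 and 1.15 on the log2 scale, and none was called in C57. The medians over the 8 genes were 0.75 in C57 and 0.95 in MRL. The log2 fold changes in C57 were 1.24 for Col5a1, 0.62 for Lox and 1.14 for Col3a1 (adjusted p of 0.236, 0.552 and 0.287, edgeR). Without the libraries labelled uninjured replicate 4 none of the 8 was called in C57, and Lox and Col5a1 but not Col3a1 (adjusted p of 0.0895, edgeR) in MRL. Among 12 TGF-beta and SRF regulators, Tgfb1 rose in MRL from 33.9 ± 7.58 to 71.8 ± 23.9 CPM and Tgfb3 fell from 265 ± 28.7 to 124 ± 52.1 CPM, and none was called in C57. Their medians were 0.23 in C57 and -0.09 in MRL. Without the libraries labelled uninjured replicate 4 Tgfb1 alone was called, in MRL, and Tgfb3 had an adjusted p of 0.0677 there (edgeR). Of 8 genes for fibrin chains, cross-linking enzymes and vitronectin 4 were tested in C57 and 3 in MRL, and none was called. The fibrin chain genes Fga, Fgb and Fgg had 0 counts in all 16 libraries. Without the library labelled uninjured replicate 4, the cross-linking enzyme gene Tgm2 was called in C57, by a log2 fold change of 1.14 with an adjusted p of 0.0297 (edgeR).

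Finally, the genes whose profile over the 16 libraries lay nearest to each of the 10 were listed, by the root mean square difference of centred log2 CPM over 9447 genes of 10 CPM or more on average. The libraries share the injury contrast and the doubtful labels, so nearness is a description. Lrrc15, a surface protein of activated fibroblasts, was the nearest gene to both Cthrc1 (difference 0.77) and Postn (1.65), and was second for Tnc (1.36) after Cthrc1 itself (1.32). Tnfaip6, a hyaluronan-binding protein of inflammation, was among the nearest 3 of all of Postn, Tnc and Cthrc1. Fn1 lay close to Slc7a2, Skap2 and Srgn, at 0.40 to 0.46. Spp1 lay nearest to Col6a3 and Tnfrsf11b, the decoy receptor osteoprotegerin, at 0.63 and 0.70. Sparc and Thbs3, which varied least of the 10 by root mean square of centred log2 CPM, had their nearest genes, Dap and Ly6c1, at 0.20. The nearest genes of Tnn, Thbs1 and Thbs2 were Pxdn (1.23), Mbnl1 (0.32) and Itgbl1 (0.32).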

How the data were processed

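Per the labels and the methods of the study, the 100 nt single-end reads passed through Trimmomatic 0.36 and STAR 2.5.2b on GRCm38.p5 before counting per gene. The authors deposited these raw counts as 1 table, without normalization. The submitters' processing notes also name featureCounts, Subread 1.5.0p3 and DESeq2 1.14.1. Which gene annotation and strand option served for counting is not given in the sources used here. The labels and the methods name different library kits, and the methods describe pre-amplification without molecular identifiers, so floors cover counting error only.

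Groups came from the labels. Injured libraries were numbered in the order of their records, and a number does not pair animals. The methods give 4 animals per group, with RNA from single tendons. No libraries agreed within sampling noise.

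edgeR 4.0.16 in R 4.3.3 was used with TMM library sizes, its expression filter on the groups and robust quasi-likelihood tests. Each comparison was fitted on its 8 libraries and the interaction on all 16. All 10 genes passed the filter in every comparison. An SE is the log2 fold change over the square root of F. CPM used TMM sizes over 16 libraries, and log2 CPM a prior count of 2. DESeq2 1.42.0 was an alternative, beside other scalings, no filter, 1 fit over 16 libraries, a replicate block and leaving out each library. The code was tested on simulated data. CPM per kilobase used the union of GENCODE M21 exons on GRCm38, and start sites and promoters came from RefSeq. The 10 genes, and the lists of related and marker genes, were chosen with earlier results of these data known. Named genes were all 10 members, called genes of the pathway lists, others of those lists or of the marker lists for contrast, and genes from the 3 nearest to each member. Mtx1 and 8030451A03Rik were named for their overlap with members.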

Additional observations from a re-analysis of the deposited data

Results flagged for a closer look

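In 3 of 40 groups of 4 libraries 1 library lay far from the others (Dixon's test), where chance marks about 1 group in 20. All 3 were the library labelled uninjured C57 replicate 4, the lowest of its group each time. On the log2 CPM scale Sparc was at 12.04 there against 13.67 to 13.71 in the other uninjured C57 libraries. Thbs1 was at 5.45 against 7.44 to 7.80, and Thbs2 at 8.62 against 8.90 to 8.91. The same library carried the epidermal markers and went against its strain label, and the part of either in these levels was not tested.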

How the results depend on the processing

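Of 330 values recomputed under another setting with all or most libraries, 298 kept their direction and their side of the threshold, and so did 408 of 480 when 1 library was left out. In C57 the count of the 10 genes called after injury, 1, became 0 with upper quartile factors or no filter on low counts, 3 with DESeq2 or with all 16 libraries in one fit, and 2 without uninjured C57 library 4 and injured C57 library 1, and it was 0 to 1 with 1 library left out. In MRL the count of 3 ranged from 2 to 4. Between uninjured strains 0 became 2 without both libraries numbered 4, and between injured strains 0 became 1 with DESeq2. The cause of these changes was not tested. Counts over all genes moved with them. In C57 155 became 905 with DESeq2, 367 in one fit, 867 without uninjured C57 library 4 and injured C57 library 1, and 10 to 750 with 1 library left out. In MRL 1057 became 1818 with DESeq2 and 689 to 1260 with 1 library left out. Between injured strains 502 became 1488, 227 in one fit and 231 to 481. Between uninjured strains 0 became 101 with DESeq2, 1 without the filter, 497 without both libraries numbered 4 and 0 to 3 with 1 library left out. The interaction count of 0 became 212 with DESeq2.

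Scaling by total counts moved the median log2 fold change over all genes by 0.13 in C57, by -0.13 between injured strains, where the share of called genes that were higher in MRL went from 45.2% to 32.9%, and by -0.11 in the interaction. It turned Fn1 (-0.14) and Tnn (-0.15) between injured strains, Thbs3 (-0.0313) between uninjured strains and Tnn (-0.0458) in the interaction. Without a filter Tnn between injured strains was -0.0028. The response of Thbs3 in C57 turned to 0.0427 with DESeq2 size factors, 0.12 with total counts, 0.0186 with upper quartile factors, 0.0075 without the filter, 0.0471 with DESeq2 and 0.0368 in one fit. Without both libraries numbered 4, the difference between uninjured strains turned for Fn1 (-0.46), Sparc (-0.0350) and Thbs3 (-0.25), and the interaction for Fn1 (0.49), Thbs1 (0.60) and Cthrc1 (0.0930). None of the values that turned had passed the test.

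Leaving out 1 library also turned some values that had not passed. Their ranges in C57 after injury were -0.18 to 0.29 for Sparc, -0.15 to 0.57 for Thbs2 and -0.25 to 0.17 for Thbs3, and in MRL -0.29 to 0.32 for Thbs2. Between uninjured strains they were -0.20 to 0.39 for Fn1, -1.54 to 0.97 for Tnc, -0.63 to 0.78 for Tnn, -0.44 to 1.85 for Postn, -0.0663 to 0.32 for Sparc, -0.83 to 0.17 for Spp1, -0.21 to 0.19 for Thbs3 and -0.99 to 0.35 for Cthrc1. Between injured strains they were -0.21 to 0.27 for Fn1, -0.60 to 1.09 for Tnn and -1.29 to 0.33 for Cthrc1. In the interaction they were -0.35 to 0.23 for Fn1, -0.76 to 1.17 for Tnn, -0.23 to 0.42 for Thbs1, -0.61 to 0.17 for Thbs2 and -1.26 to 0.93 for Cthrc1.

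The uninjured libraries share replicate numbers across strains. The deviations of same-numbered libraries correlated between -0.59 and 0.24, and none of the 4 C57 libraries correlated best with its own number, so the numbers name libraries and do not pair them. With the replicate block 0 of the 10 genes were called between uninjured strains, as without it, and Tnc (1.08), Postn (-0.20) and Cthrc1 (0.0707) turned. No paired analysis was possible for the other comparisons because injured libraries carry no replicate number. With 4 libraries a group, a gene that was not called is not shown to be unchanged. The size of difference that could have been detected was not tested.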
